A study of Mus musculus with 143 samples.

Results

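The genes described here are 9 mouse members of the Wnt pathway: Ctnnb1, Lef1, Lgr5, Rnf43, Axin2, Nkd1, Notum, Apcdd1 and Dkk2. Their rows were found by matching Ensembl identifiers to gene symbols, and all 9 were present among 54232 identifiers in the deposited expression table. The table holds FPKM, fragments per kilobase of transcript corrected for the mapped total of the library, for 143 tumour libraries, so levels of different genes are given per length. The 143 libraries came from 11 mouse tumour lines, each implanted beneath the skin of the flank. In every model 5 libraries came from tumours treated with muDX400, an antibody against the T cell checkpoint receptor PD-1, 5 from tumours given the isotype control mIgG1, and 3 from untreated baseline tumours. The groups therefore total 55 muDX400, 55 isotype and 33 baseline libraries. In the muDX400 and isotype arms, antibody was injected on days 11 and 15 after implantation and the tumours were taken on day 19, which the labels call 8 days. No day is given for the baseline tumours. Tumour age and antibody injection thus cannot be told apart in any difference between isotype and baseline. The labels name no genetic change in the hosts of any group, and host strain, sex and age are not given there. Each model is a single cell line, so differences between models are differences between lines and whatever host each was grown in. The labels rate 3 models as High responders to PD-1 blockade (CM3, MBT2, MC38), 4 as Partial (CT26, EMT6, MB49, RENCA) and 4 as Resistant (4T1, B16F10, LL2, TC1). The libraries were taken as separate tumours. The labels say no more, so p-values measure the spread between these libraries.

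Wnt proteins are secreted lipid-modified ligands that bind Frizzled receptors with the co-receptors Lrp5 and Lrp6. Without a ligand, a destruction complex built on Axin and Apc marks β-catenin for degradation. With one, β-catenin accumulates, enters the nucleus and switches on genes through DNA-binding partners of the Tcf and Lef family. Many of the genes switched on are brakes on the same pathway, so their transcripts are widely read as a sign of its activity. In tumours, the pathway is best known for driving intestinal cancers and has been discussed as a feature of tumours with few T cells.

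The members fall into 4 roles. Ctnnb1 encodes β-catenin and Lef1 encodes one of its DNA-binding partners. Lgr5 is a receptor for R-spondins, which strengthen Wnt signals, and Rnf43 is a membrane ubiquitin ligase that removes Frizzled from the cell surface. Axin2 is a scaffold of the destruction complex, Nkd1 binds Dishevelled and dampens the signal inside the cell, and Notum is a secreted enzyme that strips the lipid from Wnt ligands. Apcdd1 is a membrane glycoprotein that inhibits Wnt signalling at the cell surface, and Dkk2 is a secreted ligand of Lrp5 and Lrp6 that can block the co-receptor.

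Promoter windows of RefSeq genes on GRCm38.p6, each running from 250 bases before to 50 bases after a transcript start, were available for 6 members in 11 windows of 300 bases. They were searched on both strands for 4 spellings of the Tcf and Lef binding motif. The first spelling was CTTTGAA and the second spelling was CTTTGAT. The third spelling was CTTTGTA and the last spelling was CTTTGTT. A match was found in 1 of the 11 windows. Of all 32851 mouse promoter windows in the same table, 16.9% held at least 1 match. The match lies in an internal start of Lef1, at bases 104 to 110 of the window, on the antisense strand, and is printed in capitals as TACAAAG in the sense reading. The windows shown are this one and 1 window each of 3 members whose levels the results below turn on, Axin2 and Rnf43 for RENCA and Dkk2 for CT26. A match is only a description of the letters in a window.
Lef1, chr3:131156044-131156343, plus strand: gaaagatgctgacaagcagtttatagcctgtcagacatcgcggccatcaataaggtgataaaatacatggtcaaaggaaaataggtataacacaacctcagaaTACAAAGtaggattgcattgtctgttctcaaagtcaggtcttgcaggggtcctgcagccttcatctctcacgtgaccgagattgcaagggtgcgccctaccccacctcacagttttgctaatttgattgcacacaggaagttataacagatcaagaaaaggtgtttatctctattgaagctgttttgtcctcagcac
Axin2, chr11:108920099-108920398, plus strand: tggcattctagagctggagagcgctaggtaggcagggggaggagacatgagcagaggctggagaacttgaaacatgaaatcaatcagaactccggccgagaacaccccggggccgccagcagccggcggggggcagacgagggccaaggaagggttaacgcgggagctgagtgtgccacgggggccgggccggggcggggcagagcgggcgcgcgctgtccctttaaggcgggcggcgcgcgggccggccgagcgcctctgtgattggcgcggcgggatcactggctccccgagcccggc
Rnf43, chr11:87662837-87663136, plus strand: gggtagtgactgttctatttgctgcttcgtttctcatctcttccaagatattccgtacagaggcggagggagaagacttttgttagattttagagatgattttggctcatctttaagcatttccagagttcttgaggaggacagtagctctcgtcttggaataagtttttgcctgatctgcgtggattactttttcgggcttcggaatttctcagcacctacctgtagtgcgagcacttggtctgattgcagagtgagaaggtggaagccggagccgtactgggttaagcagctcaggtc
Dkk2, chr3:132085042-132085341, plus strand: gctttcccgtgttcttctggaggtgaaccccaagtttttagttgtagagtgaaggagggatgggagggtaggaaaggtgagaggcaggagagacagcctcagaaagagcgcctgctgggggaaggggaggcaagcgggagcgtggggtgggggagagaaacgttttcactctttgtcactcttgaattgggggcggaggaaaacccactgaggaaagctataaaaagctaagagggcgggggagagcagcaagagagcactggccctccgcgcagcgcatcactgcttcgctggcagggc
The last 3 windows held none of the 4 spellings, so they carry no capitals.

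Depth, estimated from the smallest step of the deposited values, was 11.3 to 25.3 M fragments in 134 libraries. Baseline tumours of B16F10, RENCA and TC1, with 9 libraries, were deeper, at 35.8 to 49.4 M fragments. Between 10992 and 13328 genes reached 1 FPKM in a library. The closest library to each of the 143 was of the same model. The labels name the tissue only as tumour. The summed melanocyte markers were 5470 to 10903 FPKM in the 8-day libraries of B16F10 and CM3 and at most 4.66 FPKM in the 8-day libraries of the other 9 models. Sample numbers fall into blocks, and isotype and baseline libraries share a block only in B16F10 and RENCA. For the other 9 models the difference between isotype and baseline cannot be told apart from the block. In such bulk samples, fewer cells of a type and less RNA per cell cannot be told apart.

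Differences were tested on log2(FPKM + 1), a scale that understates changes of genes near or under 1 FPKM, with limma and Benjamini-Hochberg adjustment over all genes tested. A difference was called at an adjusted p under 0.05. Each difference is given on this log2 scale with its standard error. A gene entered the comparison of muDX400 with isotype only if it reached 1 FPKM in 5 of the 10 libraries, or in 3 of 8 for isotype against baseline, so low members went untested in many models. As an alternative, the 110 libraries of both 8-day arms were fitted together, so that each gene had a single estimate of spread shared over the 11 models, and a gene then needed 1 FPKM in 5 of the 110. Values from it are given as with the shared spread. This spread can be smaller than that within a single model, above all for a gene near 0 FPKM in most models. Levels differed widely between lines: 8 of the 8 members that passed the filter over the 55 isotype libraries differed between models, against 99.2% of all genes tested. Lgr5 did not pass.

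**Figure D1:**
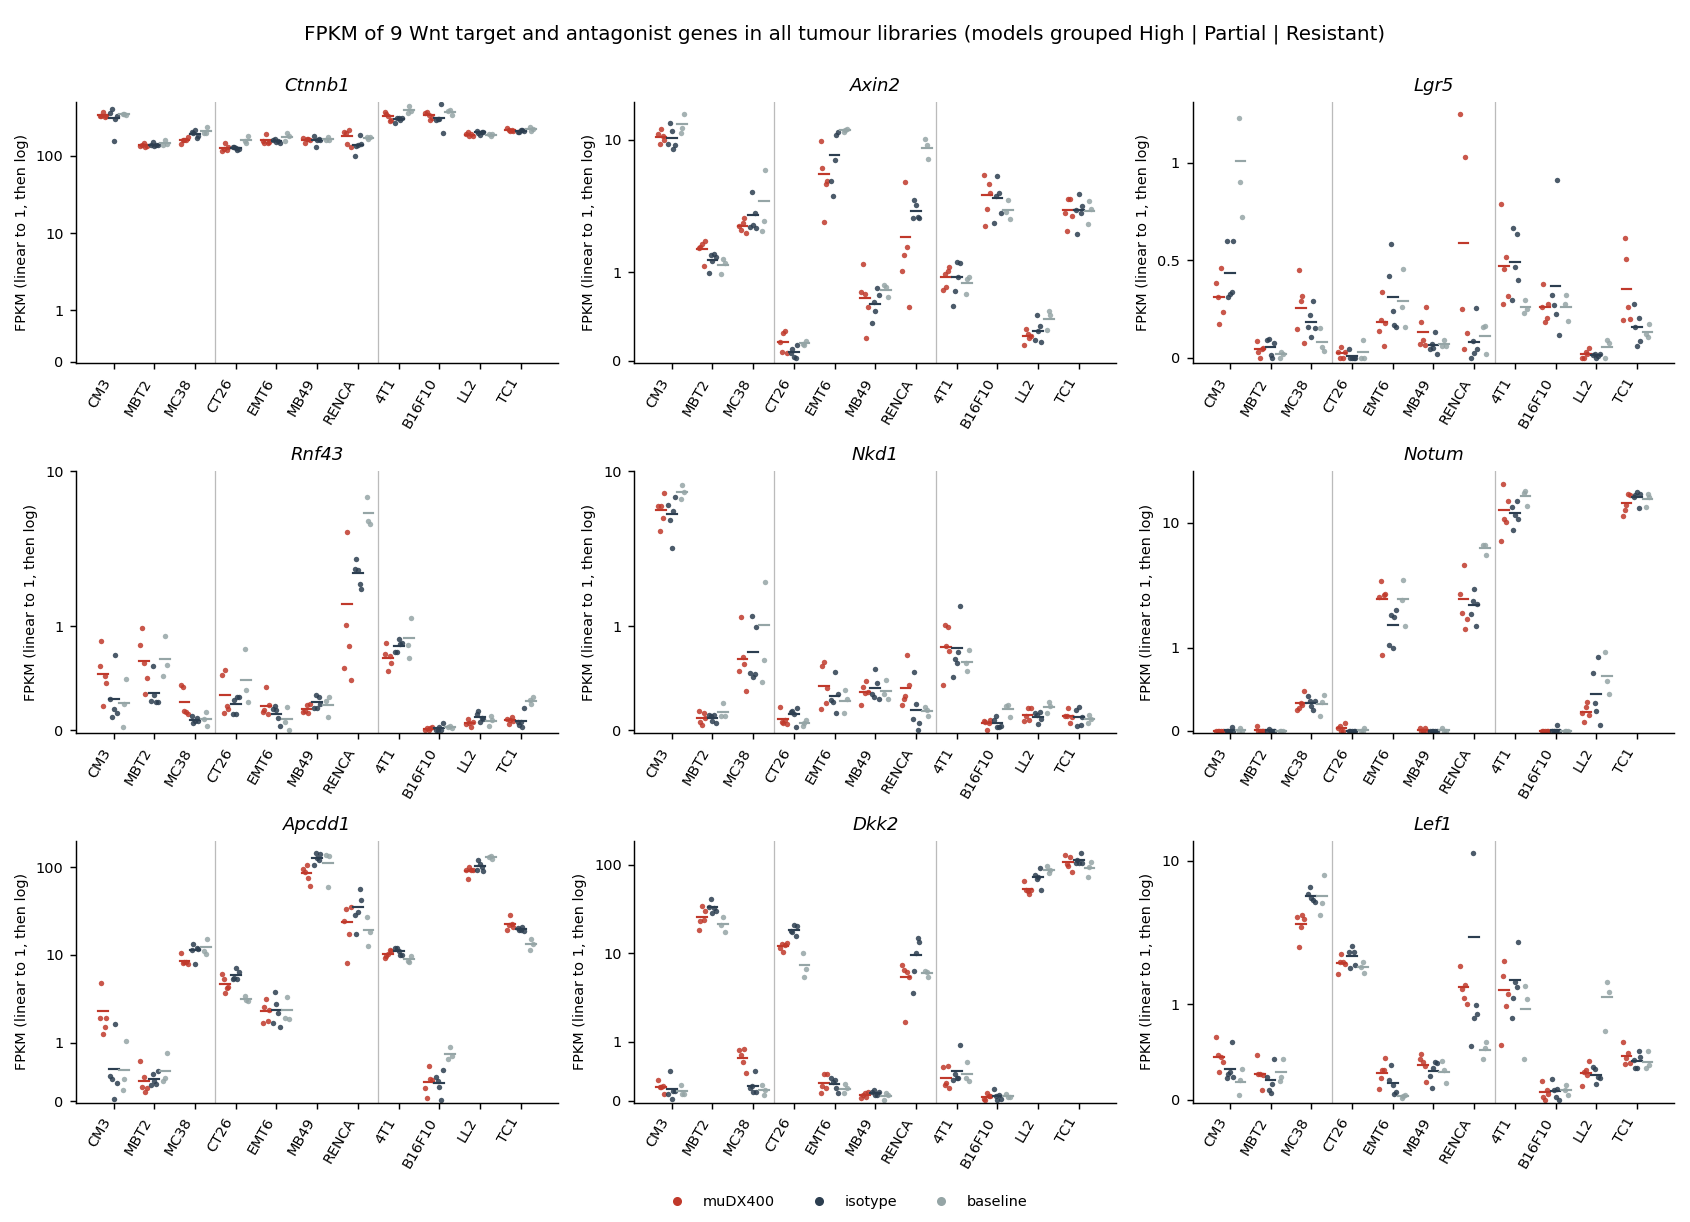
Level of each of the 9 genes in every library, in FPKM (vertical axis, linear up to 1 and logarithmic above), for the 11 models grouped by the labels' response class, with muDX400, isotype and baseline libraries from left to right and short lines at the group means. Ctnnb1 lies between 99.5 and 466 FPKM throughout, whereas Dkk2 and Apcdd1 run from under 1 FPKM in some models to over 100 FPKM in others.

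Ctnnb1 (chromosome 9, 120929216 to 120960507, plus strand, protein coding, in GENCODE M21 on GRCm38) was the most abundant of the 9 in the isotype arm of all 11 models. It was also the most even, with a ratio of 2.47 between the highest and lowest isotype means. B16F10 averaged 309 ± 97 FPKM, CM3 308 ± 94.4 and 4T1 298 ± 17.9 (SD, n = 5 each), and the ranges of these 3 overlapped. Below them, separated from 4T1, came TC1 at 210 ± 6.12 FPKM, and from there the ranges of neighbouring models overlapped down to RENCA at 139 ± 30.9 and CT26 at 125 ± 4.61 (SD, n = 5 each). The CM3 mean holds a library that stands apart. In isotype replicate 3 Ctnnb1 was 154 FPKM, while Ulk4, a gene that overlaps it on the opposite strand, was 178 FPKM there and 0.267 to 3.79 FPKM in the other 142 libraries. The sum of both genes in that library, 332 FPKM, lay within the 300.4 to 405 FPKM of the other CM3 isotype libraries. Whether reads were counted by strand is not given in the sources used here, and the part of this overlap in the Ctnnb1 value was not tested.

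In the within-model fits Ctnnb1 changed with muDX400 in 1 model. In MC38 it measured 143, 162, 158, 160 and 174 FPKM with muDX400 and 200.2, 195, 217, 169 and 183 FPKM with isotype. The arms touch, since the highest muDX400 library exceeds the lowest isotype library. The level fell by 0.27 ± 0.09 (limma adjusted p = 0.0427), in a model where 27.3% of all genes tested were called and 12.7% were called lower. The call is a narrow one and was lost in 12 of 15 alternatives, with adjusted p up to 0.105. In CM3 the difference was 0.19 ± 0.23 with all libraries and -0.05 ± 0.13 without isotype replicate 3, neither called. In RENCA the difference of 0.35 was not called within the model and was called with the shared spread (± 0.13, limma adjusted p = 0.0460).

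Against baseline, Ctnnb1 fell in the isotype tumours of 2 models. In 4T1 the 5 isotype libraries held 269 to 311 FPKM, against 358 to 443 FPKM in the baseline libraries. The ranges are apart, as they were for 22.4% of genes, with a difference of -0.40 ± 0.10 (limma adjusted p = 0.0251) where 15.3% of genes were called, but leaving out a library ended the call in 4 of 8 cases. In CT26 the isotype libraries held 119 to 129 FPKM, against 146 to 179 FPKM at baseline. That difference was -0.35 ± 0.09 (limma adjusted p = 0.0176) with 23.4% of genes called. The median over all genes in CT26 was itself -0.10, and when libraries were scaled to a common median ratio the difference shrank to -0.16 with no call (limma adjusted p = 0.253).

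Lef1 (chromosome 3, 131110471 to 131224356, plus strand), which also marks naive and memory T cells, was highest in MC38. Isotype means were 5.68 ± 0.560 FPKM in MC38, 2.91 ± 4.66 in RENCA, 2.17 ± 0.323 in CT26 and 1.48 ± 0.714 in 4T1 (SD, n = 5 each), with overlapping neighbours. All 7 other models averaged under 0.5 FPKM and were separated from 4T1. The RENCA mean rests on replicate 2, which held 11.2 FPKM, while the other 4 isotype libraries held 0.567 to 0.991 FPKM. Without replicate 2, RENCA would fall below CT26 and 4T1. That library also had the highest T cell sums of the RENCA isotype arm, at 154 FPKM against 10.9 to 40.4 FPKM in the other 4 for 6 T cell markers, and 162 FPKM against 14.9 to 25.97 FPKM for 5 markers of naive and memory T cells. Their part in its Lef1 value was not tested.

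Lef1 fell with muDX400 in MC38. The libraries held 4.06, 2.51, 3.44, 4.16 and 3.89 FPKM with muDX400, against 5.88, 6.55, 5.51, 5.28 and 5.17 FPKM with isotype. All muDX400 libraries lie below all isotype libraries, which was so for 16.9% of genes tested in this model. The difference was -0.54 ± 0.12 (limma adjusted p = 0.00923) and it was called in all 15 alternatives. T cell and macrophage markers moved in the opposite direction. The summed T cell markers were 31.8 to 127 FPKM with muDX400 and 7.65 to 15.9 FPKM with isotype. The macrophage markers were 188 to 452 FPKM with muDX400 and 112 to 143 FPKM with isotype. Fibroblast marker sums overlapped, at 773 to 2123 FPKM with muDX400 and 541 to 1165 FPKM with isotype. Proliferation marker sums were lower with muDX400, as Lef1 was, at 191 to 265 FPKM against 279 to 334 FPKM with isotype. The part of these shifts in the Lef1 and Ctnnb1 values was not tested. Baseline MC38 tumours held 4.15, 5.03 and 7.89 FPKM of Lef1, a range that spans the isotype values.

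Outside MC38, no Lef1 difference between muDX400 and isotype was called. In RENCA the muDX400 libraries held 1.84, 1.28, 1.10, 1.36 and 1.00 FPKM, all above the 4 isotype libraries other than replicate 2. Without that replicate the RENCA difference was 0.34 ± 0.16 (limma adjusted p = 0.336). In LL2 Lef1 stayed under the filter, at 0.162 to 0.342 FPKM in isotype tumours and 0.725 to 1.42 FPKM at baseline. The T cell marker sum there was 0.345 to 1.78 FPKM in isotype tumours and 12.2 to 16.3 FPKM at baseline, and its part in the Lef1 values was not tested.

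Lgr5 (chromosome 10, 115450311 to 115587780, minus strand) was barely detected. Only 3 of 143 libraries reached 1 FPKM: RENCA muDX400 replicates 1 and 4 at 1.47 and 1.04 FPKM, and CM3 baseline replicate 1 at 1.42 FPKM. It was listed at 0 in 16 libraries, and its isotype means ran from 0.490 ± 0.156 FPKM in 4T1 and 0.435 ± 0.151 in CM3 down to 0.00916 ± 0.0205 in CT26 (SD, n = 5 each). Every model in this order overlapped the next. CM3 was the model whose baseline stood out, with 1.42, 0.901 and 0.723 FPKM, above the 0.313 to 0.601 FPKM of its isotype tumours. Lgr5 passed the filter in no comparison. Without the filter, its isotype level differed between models and no muDX400 or baseline comparison over the 11 models called it.

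Rnf43 (chromosome 11, 87662722 to 87735539, plus strand) was highest in RENCA. Isotype means were 2.20 ± 0.389 FPKM in RENCA and 0.810 ± 0.0568 in 4T1 (SD, n = 5 each), each apart from the model below it. The remaining 9 models averaged 0.0203 to 0.354 FPKM. Reaching 1 FPKM in only 11 of 143 libraries, it passed the filter of the within-model fits in RENCA alone. In MC38, below the filter, Rnf43 held 0.431, 0.418, 0.187, 0.172 and 0.151 FPKM with muDX400 and 0.139, 0.0709, 0.0829, 0.112 and 0.0823 FPKM with isotype. These arms do not overlap, as was so for 16.9% of genes tested in MC38, and all values lie under 1 FPKM. The gene was below the filter of the fit within MC38, and with the shared spread the difference of 0.21 ± 0.12 was not called (limma adjusted p = 0.219).

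Axin2 (chromosome 11, 108920349 to 108950783, plus strand), the broadest feedback target, spanned a ratio of 110 between models. Isotype means were 10.4 ± 2.02 FPKM in CM3, 7.64 ± 3.52 in EMT6, 3.66 ± 1.17 in B16F10, 2.97 ± 0.700 in TC1, 2.91 ± 0.444 in RENCA and 2.69 ± 0.787 in MC38 (SD, n = 5 each). The ranges of neighbouring models overlapped down to MC38, which was separated from MBT2 at 1.25 ± 0.156 FPKM. Then came 4T1 at 0.946 ± 0.244, MB49 at 0.644 ± 0.151 and LL2 at 0.340 ± 0.125 FPKM, with CT26 apart at 0.0947 ± 0.0601 FPKM (SD, n = 5 each). The order of models by Axin2 was not that of the response classes: High, Partial and Resistant models all lie among the upper 6.

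Nkd1 (chromosome 8, 88521354 to 88594884, plus strand) was highest in CM3. It averaged 5.30 ± 1.36 FPKM in CM3 isotype tumours, apart from 4T1 at 0.792 ± 0.331 and MC38 at 0.752 ± 0.306 FPKM (SD, n = 5 each). The other 8 models lay between 0.0647 and 0.402 FPKM. In CM3 the libraries held 4.10 to 7.22 FPKM with muDX400, 3.21 to 6.79 FPKM with isotype and 6.62 to 8.10 FPKM at baseline. The 8-day arms overlap nearly completely, with a difference of 0.09 ± 0.19, and the isotype difference from baseline of -0.44 ± 0.22 was not called (limma adjusted p = 0.444). CM3 thus held the highest isotype means of both Axin2 and Nkd1.

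Notum (chromosome 11, 120653788 to 120661175, minus strand) behaved almost as present or absent. TC1 averaged 16.1 ± 1.74 FPKM and 4T1 11.9 ± 2.37 (SD, n = 5 each), with overlapping ranges. A gap separated them from RENCA at 2.18 ± 0.554 and EMT6 at 1.53 ± 0.473 FPKM, and another separated these from LL2 at 0.444 ± 0.333 and MC38 at 0.337 ± 0.0661 FPKM (SD, n = 5 each). In the isotype arms of MB49 and CT26 all 5 libraries were listed at 0, and B16F10, CM3 and MBT2 averaged at most 0.0125 FPKM. Its antisense neighbour Notumos, which overlaps it, never exceeded 1.52 FPKM. Among the tested models none showed a called muDX400 difference. The widest was in EMT6, where the libraries held 2.54, 3.39, 0.906, 2.66 and 2.66 FPKM with muDX400 and 1.04, 1.83, 1.00, 1.77 and 2.01 FPKM with isotype. Apart from muDX400 replicate 3 the treated libraries were the higher, but the difference of 0.41 ± 0.22 was not called (limma adjusted p = 0.907).

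In RENCA Axin2, Rnf43 and Notum were called lower in isotype tumours than at baseline. Of the other members, Ctnnb1 (-0.33), Apcdd1 (0.80) and Dkk2 (0.47) were not called. Lgr5 (-0.04), Nkd1 (-0.003) and Lef1 (0.81) lay below the filter, and the Lef1 difference includes the high isotype replicate 2. Axin2 held 2.57, 3.54, 3.22, 2.64 and 2.60 FPKM in isotype tumours, against 10.1, 9.08 and 7.13 FPKM at baseline. Every isotype library is under every baseline library, with a difference of -1.31 ± 0.18 (limma adjusted p = 0.00311). Rnf43 held 2.34, 2.71, 2.32, 1.89 and 1.73 FPKM in isotype tumours, against 6.84, 4.80 and 4.58 FPKM at baseline. It fell by 0.99 ± 0.18 (limma adjusted p = 0.0116), again with no overlap. Notum held 1.85, 2.36, 2.97, 1.5003 and 2.22 FPKM in isotype tumours, against 6.62, 6.68 and 5.56 FPKM at baseline, and fell by 1.21 ± 0.19 (limma adjusted p = 0.00509). Across all genes of RENCA 8.25% were called lower and groups did not overlap for 24.8%, with a median difference over all genes of -0.17. All RENCA libraries lie in the same block of sample numbers, although the baseline libraries were sequenced more deeply and carry no excision day. The Axin2 call held when any of the 8 libraries was left out. Rnf43 was no longer called without any of the 3 baseline libraries, nor Notum without baseline replicate 1 or 2.

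With muDX400 the same 3 genes in RENCA spread widely between libraries. Axin2 held 1.03, 1.36, 4.78, 1.54 and 0.607 FPKM, and Rnf43 held 0.595, 1.02, 4.03, 0.813 and 0.485 FPKM. In both, replicate 3 exceeds every isotype library and the other 4 lie below all of them. With all libraries neither difference was called within RENCA alone: -0.60 ± 0.29 for Axin2 (limma adjusted p = 0.387) and -0.58 ± 0.30 for Rnf43 (limma adjusted p = 0.417), where 2.57% of genes were called. With the shared spread both were called lower (limma adjusted p = 0.0207 for Axin2 and 0.000292 for Rnf43), where 16.2% of genes were called. The shared standard error of Rnf43 was 0.12, against 0.30 within RENCA, and the shared spread includes models where Rnf43 lay near 0 FPKM. Within RENCA alone, each library was also left out in turn. Axin2 and Rnf43 were called only without muDX400 replicate 3, the highest of its arm for both. Both then fell, by 0.89 ± 0.18 for Axin2 (limma adjusted p = 0.0158) and by 0.89 ± 0.16 for Rnf43 (limma adjusted p = 0.01004). In that fit 758 genes were called in place of 325. Notum, by contrast, held 2.70, 1.90, 4.57, 1.41 and 1.68 FPKM with muDX400 and overlapped the isotype values.

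Cell type marker sums also differed between these RENCA libraries. The summed epithelial markers, mostly Krt8 and Krt18, were 95.96, 177, 850, 146 and 83.3 FPKM with muDX400, 627, 288, 412, 262 and 345 FPKM with isotype, and 861, 879 and 874 FPKM at baseline. Replicate 3 of the muDX400 arm is thus at the baseline level of epithelial markers, and the other 4 are below every isotype library. Fibroblast marker sums ran the other way, with 2946, 1934, 838, 3326 and 1659 FPKM with muDX400 against 512 to 1229 FPKM with isotype and 831 to 1312 FPKM at baseline. The defining epithelial gene Epcam was at most 5.2 FPKM in any RENCA library. The part of these shifts in the Axin2 and Rnf43 values was not tested.

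**Figure D2:**
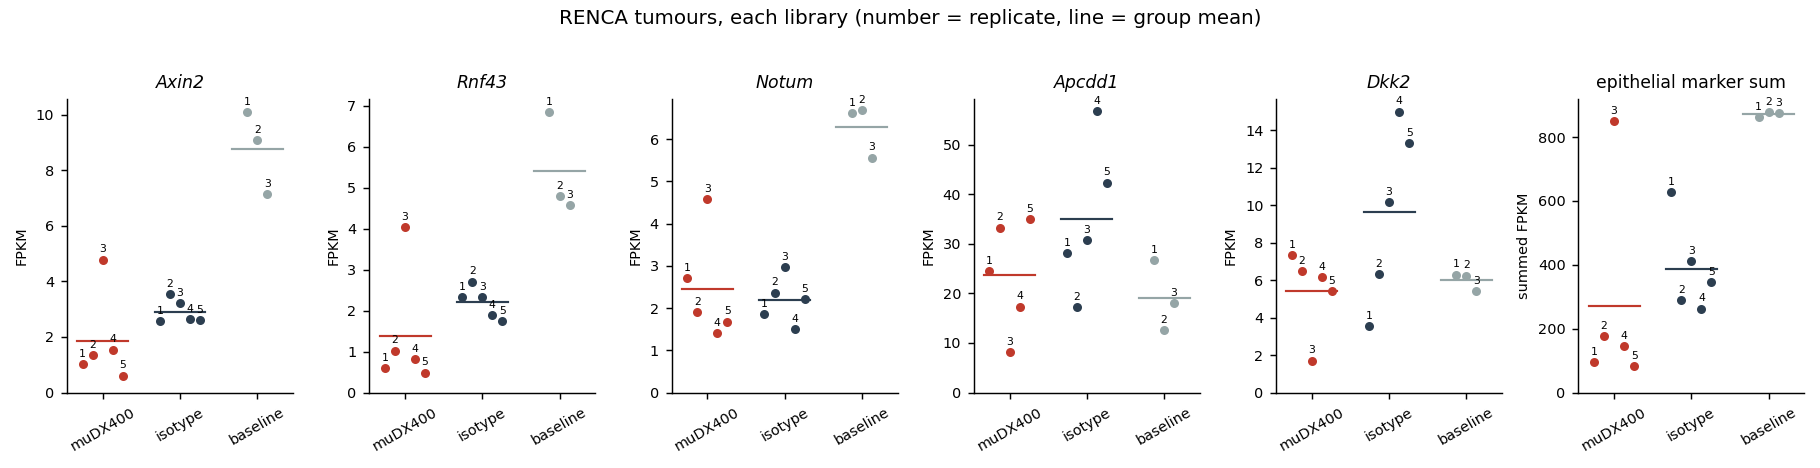
Levels in FPKM of Axin2, Rnf43, Notum, Apcdd1 and Dkk2 and the summed epithelial markers in each RENCA library, numbered by replicate, with muDX400, isotype and baseline from left to right. Replicate 3 of muDX400 is the highest of its arm for Axin2, Rnf43, Notum and the epithelial sum and the lowest for Apcdd1 and Dkk2.

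EMT6 gave a similar picture between isotype and baseline for Axin2, but a less certain one. Axin2 held 4.88, 3.75, 7.05, 11.0 and 11.6 FPKM in isotype tumours, against 11.5, 11.8 and 12.1 FPKM at baseline. Isotype replicate 5 lies within the baseline range and the other 4 isotype libraries lie below it. The difference was -0.67 ± 0.31 (limma adjusted p = 0.199), where 10.6% of genes were called. This is the only comparison in which all pairs of libraries with the same replicate number correlated above 0.1. A fit with the replicate number as a block leaves isotype replicates 4 and 5 without a partner, so neither enters the difference. These hold the highest Axin2 values of the isotype arm, at 11.0 and 11.6 FPKM. In that fit Axin2 was lower by 1.07 (difference -1.07, limma adjusted p = 0.00755). With the same block Notum differed by -0.57 (limma adjusted p = 0.0314), against -0.43 without it (limma adjusted p = 0.233), and genes called rose to 2768, against 1365 without it.

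Apcdd1 (chromosome 18, 62922231 to 62961179, plus strand) varied over a ratio of 413 between models. Isotype means were 128 ± 16.1 FPKM in MB49 and 103 ± 13.2 in LL2, then 35.1 ± 15.1 in RENCA and 19.6 ± 0.882 in TC1, then 11.3 ± 2.03 in MC38 and 11.0 ± 0.985 in 4T1 (SD, n = 5 each). Members of each of these pairs overlapped and the pairs were separate. CT26 stood alone at 5.92 ± 0.779 FPKM, and EMT6, CM3, MBT2 and B16F10 followed at 2.38, 0.552, 0.375 and 0.309 FPKM, with overlapping neighbours. MB49 and LL2 are rated Partial and Resistant.

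No muDX400 difference of Apcdd1 was called in the within-model fits with all libraries in place. In MB49 it held 95.8, 88.8, 106, 74.9 and 61.9 FPKM with muDX400 and 105, 145, 126, 121 and 141 FPKM with isotype. Only the highest treated and the lowest isotype library cross. The difference was -0.59 ± 0.14, with a limma p of 0.0014 that became 0.229 after adjustment in a model where 0 genes were called by limma and 1247 had an unadjusted p under 0.05. In MC38 the difference was -0.34 ± 0.13 (limma adjusted p = 0.0751), and leaving out a single library moved it past the threshold: -0.45 without isotype replicate 3 (limma adjusted p = 0.0111) and -0.41 without muDX400 replicate 1 (limma adjusted p = 0.0400). In RENCA Apcdd1 held 24.5, 33.3, 8.14, 17.3 and 35.1 FPKM with muDX400 and 28.2, 17.3, 30.8, 56.8 and 42.4 FPKM with isotype. These arms overlap, and neither this difference of -0.60 nor the isotype difference from baseline of 0.80 was called within RENCA. Without muDX400 replicate 3 the difference was -0.28 (limma adjusted p = 0.743), and with the shared spread and all libraries it was called (limma adjusted p = 0.0316).

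CM3 ran in the other direction. Apcdd1 held 1.92, 4.83, 1.24, 1.52 and 1.92 FPKM with muDX400, against 0.422, 0.377, 0.0358, 1.61 and 0.313 FPKM with isotype. All isotype libraries but replicate 4 lie below every muDX400 library. The difference of 1.07 ± 0.30 was not called (limma adjusted p = 0.179), 0 genes were called in CM3 by limma and 3441 had an unadjusted p under 0.05. With the shared spread the same difference was called (limma adjusted p = 3.57e-05), as were 41.2% of genes. The median over all genes was 0.13. Isotype replicate 4 also held 923 FPKM of summed skeletal muscle markers, against 0.633 to 1.13 FPKM in the other isotype libraries, and 751 FPKM of fibroblast markers, against 82.2 to 241 FPKM in the other isotype libraries and 303 to 617 FPKM with muDX400. Without it, Apcdd1 rose with muDX400 by 1.27 ± 0.26 (limma adjusted p = 0.00708) and 3942 genes were called in place of 0. Leaving out any other 8-day CM3 library gave no call. Without isotype replicate 3, the lowest in Apcdd1, the difference was 0.94 ± 0.30 (limma adjusted p = 0.317). FPKM over all genes summed to 784467 and 885333 in isotype replicates 2 and 3, against 507254 to 531146 in the other 8-day CM3 libraries. The part of the muscle and fibroblast markers and of these totals in the Apcdd1 values was not tested.

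Against baseline, Apcdd1 moved in 3 models and not in the same direction. In CT26 it held 5.32 to 7.11 FPKM in isotype tumours, against 3.001 to 3.39 FPKM at baseline, and rose by 0.73 ± 0.12 (limma adjusted p = 0.00262). In TC1 it held 18.6 to 20.9 FPKM in isotype tumours and 11.5 to 15.2 FPKM at baseline, and rose by 0.53 ± 0.08 (limma adjusted p = 0.000903), where 37.0% of genes were called. In LL2 it held 90.1 to 123 FPKM in isotype tumours and 124 to 135 FPKM at baseline, and fell by 0.34 ± 0.10 (limma adjusted p = 0.0305), where 27.1% were called. The LL2 call was lost in 5 of 8 cases when a library was left out. In all 3 the groups did not overlap, as was so for 29.6% of genes in CT26, 40.9% in TC1 and 36.9% in LL2.

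Dkk2 (chromosome 3, 132085292 to 132180304, plus strand) had the widest range of the 9, with a ratio of 1365 between the highest and lowest isotype means. It also gave the sharpest order. TC1 averaged 113 ± 13.4 FPKM, LL2 73.3 ± 14.5, MBT2 33.2 ± 5.03, CT26 18.6 ± 2.25 and RENCA 9.66 ± 4.76 (SD, n = 5 each), and no library of one overlapped the next. The other 6 models averaged 0.0828 to 0.512 FPKM, overlapped their neighbours and were separated from RENCA. These 5 Dkk2-high models include High, Partial and Resistant lines.

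Dkk2 fell with muDX400 in CT26. It held 11.4, 12.8, 10.4, 12.5 and 13.01 FPKM with muDX400, against 17.9, 17.7, 21.1, 15.7 and 20.6 FPKM with isotype. No treated library reaches any isotype library, as was so for 4.52% of genes. The difference was -0.59 ± 0.09 (limma adjusted p = 0.0335), and Dkk2 was 1 of only 6 genes called lower in CT26, 0.0496% of those tested (0.339% in either direction). The adjusted p rose above the threshold in 11 of 15 alternatives, to at most 0.180, while the direction was kept in all 15. Marker sums differed between these arms as well. Macrophage markers summed to 224 to 269 FPKM with muDX400 and 171 to 216 FPKM with isotype, and adipocyte markers to 7.16 to 24.5 FPKM with muDX400 and 0.1045 to 6.19 FPKM with isotype, neither overlapping. T cell markers summed to 18.9 to 75.96 FPKM with muDX400 and 11.3 to 25.5 FPKM with isotype. The part of these markers in the Dkk2 value was not tested.

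In the other 4 Dkk2-high models no muDX400 difference was called within the model. In LL2 the libraries held 65.4, 52.2, 50.3, 47.2 and 52.6 FPKM with muDX400 and 77.8, 70.2, 73.7, 92.4 and 52.2 FPKM with isotype, a difference of -0.43 ± 0.13 (limma adjusted p = 0.266). In MBT2 they held 18.6, 23.1, 34.7, 23.7 and 30.4 FPKM with muDX400 and 33.1, 41.7, 29.0, 32.5 and 29.98 FPKM with isotype, a difference of -0.36 ± 0.15 (limma adjusted p = 0.154). Both pairs of arms overlap. In MBT2 the difference of -0.47 without muDX400 replicate 3, the highest of its arm, was called (limma adjusted p = 0.0377). Leaving out any other muDX400 or isotype library of MBT2 gave no call, and with all libraries limma called 0 genes there. In RENCA Dkk2 held 7.32, 6.47, 1.70, 6.15 and 5.41 FPKM with muDX400, against 3.53, 6.31, 10.2, 15.0 and 13.3 FPKM with isotype. That difference of -0.69 was not called within RENCA, was -0.40 without muDX400 replicate 3 (limma adjusted p = 0.612), and was called with the shared spread and all libraries (limma adjusted p = 0.00195). TC1, the model with the most Dkk2, held 130, 103, 98.4, 124 and 82.5 FPKM with muDX400 and 106, 115, 104, 136 and 105 FPKM with isotype, a difference of -0.08 (limma adjusted p = 0.930). In MC38, where Dkk2 was below the filter, the libraries held 0.861, 0.779, 0.662, 0.887 and 0.476 FPKM with muDX400 and 0.228, 0.254, 0.159, 0.500 and 0.159 FPKM with isotype. All treated libraries but replicate 5 exceed every isotype library. Dkk2 was not tested in MC38 alone, and with the shared spread it rose there by 0.46 ± 0.17 (limma adjusted p = 0.0354), where 27.7% of genes were called.

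Against baseline, Dkk2 rose in the isotype tumours of CT26 and MBT2. In CT26 the isotype values above compare with 10.1, 5.41 and 6.74 FPKM at baseline, a difference of 1.25 ± 0.17 (limma adjusted p = 0.00121). The muDX400 libraries of CT26 lie between the isotype and baseline libraries, and both comparisons share the isotype libraries. In MBT2 the isotype libraries held 29.0 to 41.7 FPKM and the baseline libraries 17.4 to 26.1 FPKM, a difference of 0.62 ± 0.14 (limma adjusted p = 0.0173) where 22.4% of genes were called. That call was lost without baseline replicate 3. LL2 went the other way, with 52.2 to 92.4 FPKM in isotype tumours and 81.5 to 97.7 FPKM at baseline, and was not called (difference -0.29 ± 0.16, limma adjusted p = 0.187). With the replicate number as a block, Dkk2 in LL2 was called lower (-0.26, limma adjusted p = 0.00645), where 5527 genes were called, against 3369 without it. Only 1 of 3 same-numbered pairs in that LL2 comparison correlated above 0.1. Isotype replicates 4 and 5, at 92.4 and 52.2 FPKM, have no partner and do not enter the block difference.

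**Figure D3:**
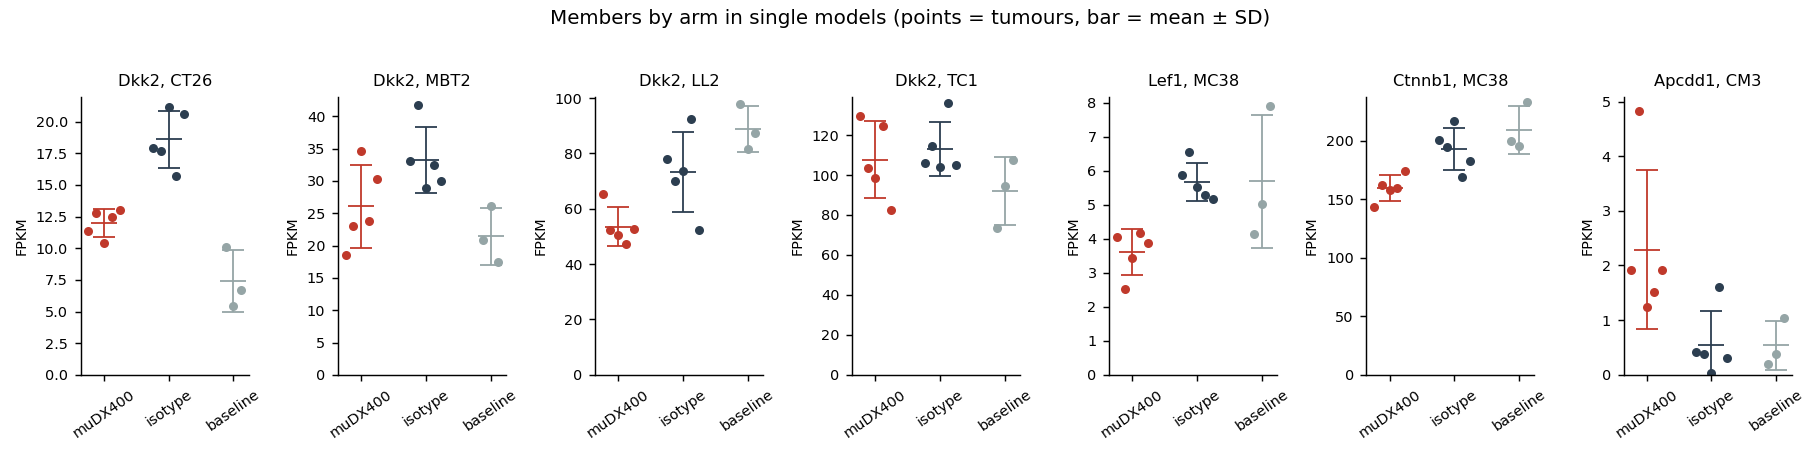
Mean level in FPKM with SD and single libraries of Dkk2 in CT26, MBT2, LL2 and TC1, of Lef1 and Ctnnb1 in MC38 and of Apcdd1 in CM3, for muDX400, isotype and baseline from left to right. In CT26 all 5 muDX400 libraries, at 10.4 to 13.01 FPKM, lie under the lowest isotype library at 15.7 FPKM, and in MC38 the same holds for Lef1.

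Counted over all models, the 9 genes and 11 models gave 99 pairs for muDX400 against isotype, of which 42 passed the filter and 3 were called, all lower and all in CT26 or MC38. Over the same 11 fits 2.82% of all genes tested were called. With the shared spread 88 pairs were tested and 8 called, where 7.98% of all genes were. Those called higher were Apcdd1 in CM3, Dkk2 in MC38 and Ctnnb1 in RENCA, and those called lower were Lef1 in MC38 and Axin2, Rnf43, Apcdd1 and Dkk2 in RENCA. Dkk2 in CT26 and Ctnnb1 in MC38 were not called with it. In 7 models limma called 0 genes of any kind, with 351 to 3597 genes at an unadjusted p under 0.05, so no member was called there in the within-model fits. TC1 called 10 genes, 0.0802%, none of them a member. For isotype against baseline, 40 of 99 pairs passed the filter and 10 were called, 4 higher and 6 lower, in 6 models, against 13.9% of all genes tested over the 11 fits.

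**Figure D4:**
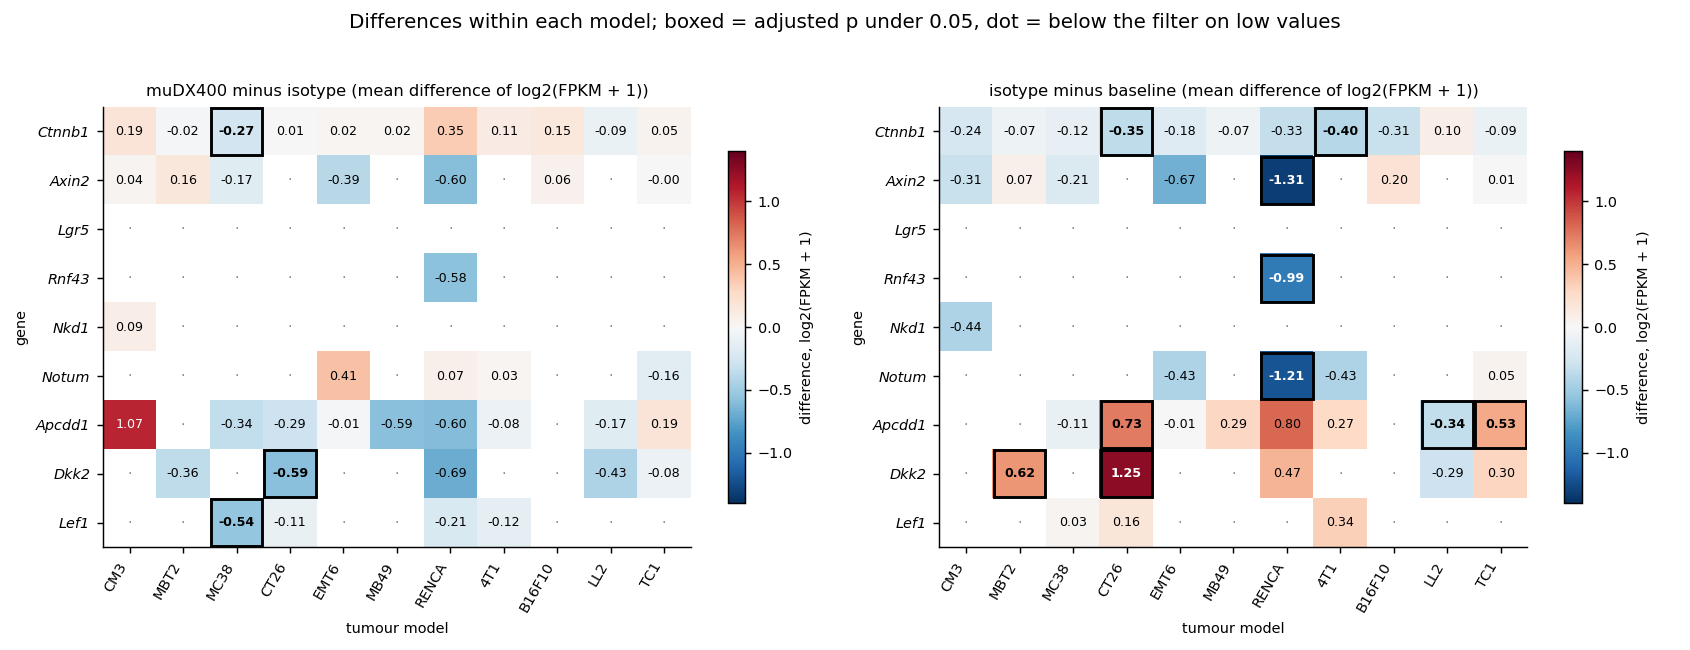
Log2 differences of each gene in each model, for muDX400 minus isotype and for isotype minus baseline, with a box where the limma adjusted p of the fit within that model was under 0.05 and a dot where the gene was below the filter. The 3 boxes for muDX400 are Dkk2 in CT26 and Ctnnb1 and Lef1 in MC38, and the 10 boxes for isotype against baseline fall in 4T1, CT26, LL2, MBT2, RENCA and TC1.

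Averaged over the 11 models, 1 of 8 tested members changed with muDX400, against 23.1% of all genes, 8.57% lower. Dkk2 fell by 0.16 ± 0.05 (limma adjusted p = 0.0142), with a lower mean in 8 of 11 models. Among these, 4T1, B16F10 and MB49 held under 1 FPKM of Dkk2, with differences of -0.12, -0.01 and -0.05. The 3 models with a higher mean also held under 1 FPKM. The call was lost without CT26 (-0.12, limma adjusted p = 0.115) or without LL2 (-0.14, limma adjusted p = 0.0552). The other 7 had mean differences from -0.08 for Apcdd1 to 0.05 for Ctnnb1, with standard errors of 0.03 to 0.06. A test of whether the muDX400 difference itself varied between models called Apcdd1 (limma adjusted p = 0.00036), Dkk2 (0.0036) and Rnf43 (0.0038), 3 of 8 where 32.4% of all genes were called. These calls rest on the shared spread, which need not be that of any single model. Each of these calls needed a particular model: Apcdd1 was no longer called without CM3, Dkk2 without MC38, and Rnf43 dropped under the filter without RENCA.

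For isotype against baseline, the mean over 11 models was called for 5 of 8 members, where 29.7% of genes were called. Ctnnb1 (-0.19 ± 0.05), Axin2 (-0.24 ± 0.06), Rnf43 (-0.15 ± 0.03) and Notum (-0.20 ± 0.04) fell, and Dkk2 (0.24 ± 0.06) rose, against a median over all genes of -0.06. All genes together leaned lower, with 25.5% called lower and 4.12% higher. In the 2 models whose baseline shares a sample block, B16F10 and RENCA, Axin2 (-0.56), Rnf43 (-0.50) and Notum (-0.60) were called, while Ctnnb1 (limma adjusted p = 0.216) and Dkk2 (limma adjusted p = 0.499) were not. B16F10 alone had an Axin2 difference of 0.20 ± 0.22, so the mean of these 2 models comes from RENCA.

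No member was called for a trend with the labels' response class. With each model as a replicate and the classes scored Resistant, Partial, High, limma called 0 of 8 members for the muDX400 difference, where 0.902% of all genes were called and no member had an unadjusted p under 0.05. For isotype levels 0 of all 13589 genes were called, with 640 at an unadjusted p under 0.05, and for baseline levels 0 of 14009, with 431. Only 6 members were tested for levels, since Lgr5, Rnf43 and Nkd1 did not pass the filter. With 0 genes called, the level tests cannot decide whether a member follows the class. Notum was the nearest member, with a slope of -0.98 ± 0.45 per class in isotype tumours (limma adjusted p = 0.990) and -1.04 ± 0.50 at baseline, lower toward High. Of the 11 models 7 averaged under 0.5 FPKM of Notum, and the 2 highest, TC1 and 4T1, are both rated Resistant.

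Of 86 further Wnt genes in the table, 68 passed the filter for the mean muDX400 difference. Of these 10 rose and 2 fell, with a median of 0.00 against -0.01 over all genes, where 23.1% of all genes were called, 14.5% higher and 8.57% lower. The 4 largest rises were those of 3 secreted Wnt antagonists and a receptor: Sfrp2 by 0.92 ± 0.16, Sfrp1 by 0.80 ± 0.11, Sfrp4 by 0.51 ± 0.12 and Fzd1 by 0.42 ± 0.06. The 2 that fell were the ligand Wnt6 (-0.18 ± 0.06) and the receptor Fzd3 (-0.05 ± 0.02). All 10 genes of the cytoplasmic relay and destruction complex were tested and limma called 0 of them. Among 9 tested members of a list of other Wnt targets limma likewise called 0.

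Within models, muDX400 calls in this list came in RENCA and MC38. In RENCA 3 of 54 rose and 1 fell, where 2.57% of all genes were called: Sfrp2 by 2.58 ± 0.49, Sfrp1 by 2.47 ± 0.47 and Fzd1 by 1.29 ± 0.22, with the ligand Wnt10b lower (-0.98 ± 0.17). In MC38 6 of 51 rose and 7 fell, where 27.3% of all genes were called, among them Dkk3 (1.73 ± 0.34), Sfrp2 (1.47 ± 0.47) and Sfrp1 (1.30 ± 0.29) upward, and Wnt6 (-0.59 ± 0.15) and the Wnt target Myc (-0.56 ± 0.18) downward. Fibroblast marker sums leaned higher with muDX400 in both models, with overlapping ranges as given above, and their part in the Sfrp values was not tested. In CT26 and TC1, limma called 0 of 41 and 0 of 54.

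The genes whose levels ran most like each member over the 33 group means were mostly not on the lists of Wnt genes used here. The highest Pearson correlations were 0.916 with Spsb4 for Ctnnb1, 0.849 with Vldlr for Lef1, 0.792 with Irx3 for Lgr5 and 0.950 with Slc52a3 for Rnf43. For Axin2 the most alike gene was Herc3 (0.914), for Nkd1 Nebl (0.959), for Notum its antisense neighbour Notumos (0.929), for Apcdd1 Enthd1 (0.926) and for Dkk2 Ankrd6 (0.931). Only Tnfrsf19, second for Lgr5 at 0.779, is also on the list of further Wnt genes. These are descriptions over 33 groups that share models, among 15779 genes searched. Among the members themselves, over the 11 isotype means, the highest correlation was 0.80 between Ctnnb1 and Lgr5, followed by 0.64 between Axin2 and Lgr5, and the lowest was -0.66 between Lgr5 and Dkk2.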

How the data were processed

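Values were used as FPKM, deposited by the authors in a table of 54232 genes and 143 libraries. Per the labels' protocols, stranded ribosome-depleted total RNA was sequenced as paired-end reads. The aligner, quantifier, build and annotation, and whether libraries were scaled to each other, were not given in the sources used here. Sample numbers in the descriptions tie each column to its sample, and 0 columns were unused. FPKM are not counts, so log2(FPKM + 1) was tested 2-sided with limma 3.58.1 (R 4.3.3, trended prior variance), Benjamini-Hochberg adjusted over all genes with at least 1 FPKM in 5 libraries (3 in fits with baseline, 3 models in trends). The fits were checked on simulated data. Tables and figures used Python 3.11.15, pandas 2.3.3, numpy 2.4.6 and matplotlib 3.10.9.

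The members and lists were chosen with earlier results of these data known. All 9 members were named in every comparison, with the genes of highest Pearson correlation over the 33 group means and the called genes of the further Wnt list, up to 4 in each direction. Libraries with the same replicate number were checked for deviating together: only in EMT6, between isotype and baseline, did all 3 pairs correlate above 0.1 (0.164 to 0.311). Symbols and coordinates came from GENCODE M21 on GRCm38, and promoters from RefSeq on GRCm38.p6. Alternatives were the pseudocount 0.1, no filter, median-ratio scaling, a replicate block, a shared spread, and leaving out each library or model.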

Additional observations from a re-analysis of the deposited data

Results flagged for a closer look

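Of 83 groups of 5 libraries with a mean of at least 1 FPKM, 9 held a library far from the other 4, and chance alone marks about 5% of groups. In RENCA muDX400 replicate 3, Rnf43 was high at 4.03 FPKM (others 0.485 to 1.02) and Dkk2 low at 1.70 FPKM (others 5.41 to 7.32). In RENCA isotype replicate 2, Lef1 was 11.2 FPKM (others 0.567 to 0.991). In EMT6 muDX400 replicate 3, Ctnnb1 was high at 194 FPKM (others 148 to 153) and Notum low at 0.906 FPKM (others 2.54 to 3.39). In CM3, Ctnnb1 was 372 FPKM in muDX400 replicate 3 (others 318 to 329) and Apcdd1 was 4.83 FPKM in muDX400 replicate 2 (others 1.24 to 1.92). Apcdd1 was also low at 73.8 FPKM in LL2 muDX400 replicate 2 (others 92.4 to 101) and high at 10.6 FPKM in MC38 muDX400 replicate 1 (others 7.98 to 8.22). The muDX400 difference itself varied between models for Apcdd1 (limma adjusted p = 0.00036), Dkk2 (0.0036) and Rnf43 (0.0038), by a test of the difference between models with the shared spread.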

How the results depend on the processing

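Of 219 alternative values of the 19 called differences, 168 kept their call, 51 kept their direction without the call and 0 reversed. The 3 calls for muDX400 within models became 1 with the replicate block and 8 with the spread shared over the 110 libraries (Apcdd1 in CM3, Dkk2 and Lef1 in MC38, and Ctnnb1, Axin2, Rnf43, Apcdd1 and Dkk2 in RENCA), and ranged from 2 to 5 when a library was left out. The count of 5 came without RENCA muDX400 replicate 3. The 10 calls for isotype against baseline ranged from 8 to 12. The single mean muDX400 call was 0 with a pseudocount of 0.1, 0 without CT26, 0 without LL2 and 2 without CM3. It was 1 without any of 4 libraries that were left out after seeing the data (RENCA muDX400 replicate 3, RENCA isotype replicate 2, CM3 isotype replicates 3 and 4). Leaving these out gave 3 to 4 calls for the difference between models, 7 to 8 for isotype levels and 5 to 6 for the mean over isotype and baseline, and 0 for trends with response class. The mean over isotype and baseline had 3 calls with only B16F10 and RENCA. Outside EMT6 no comparison had all same-numbered pairs correlating above 0.1. Single pairs did reach 0.595 between the 8-day arms of MB49 and 0.489 between isotype and baseline in MBT2. Whether a call lost with the replicate block outside EMT6 marks a weaker effect was not tested. Members under 1 FPKM did not pass the filter of the within-model fits, which left out Lgr5 in all models, Rnf43 outside RENCA and Nkd1 outside CM3. The cause of the lost calls was not tested.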
